A study of Mus musculus with 2 samples.

Results

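The 45 genes described here encode enzymes and subunits that move nucleosomes or modify histones. They comprise 7 CHD remodellers, 13 subunits of the BAF (SWI/SNF) remodelling complex, 9 histone H3 methyltransferases or related SET-domain proteins, 4 genes of Polycomb repressive complex PRC2, 2 histone demethylases, 8 histone deacetylases (HDACs) and 2 histone acetyltransferases. They were taken by gene symbol from the GENCODE M21 annotation of mouse assembly mm10, and all 45 were found among its 21938 protein-coding genes on the assembled nuclear chromosomes. The data are DNase-seq: nuclei are treated with DNase I, an enzyme that cleaves DNA where it is exposed, and the ends it makes are sequenced, so that clusters of cuts (peaks) mark open chromatin and short protected stretches inside them (footprints) mark DNA shielded from cutting. The tissue was frontal cortex of female mice of the strain B6CASTF1/J, a first-generation cross of B6 and CAST mice, taken at 10 days of age. There were 2 libraries in 1 group, named biological replicates 1 and 2 in the labels, which also carry the mark "3x" with no meaning given. With 1 group there is no contrast between conditions, and with 2 libraries no test was made: each value is given for both libraries, beside the same measure over all protein-coding genes.

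CHD and BAF proteins use ATP to slide or evict nucleosomes, whereas the enzymes of the other groups write or erase the methyl and acetyl marks on histone tails that accompany active or silent chromatin. As neural progenitors leave the cell cycle, the BAF complex exchanges several subunits: Actl6a (BAF53a) gives way to Actl6b (BAF53b), Ss18 to Ss18l1 (CREST), and Phf10 and Dpf2 to Dpf1 and Dpf3. Chd5 is a mainly neuronal relative of Chd3 and Chd4, the ATPases of the NuRD complex, which couples remodelling with histone deacetylation. Many of these genes are mutated in human neurodevelopmental disorders.

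Replicate 1 had 104654 peaks and 293484 footprints, and replicate 2 had 81654 peaks and 187137 footprints. Read totals were not given in the sources used here, so the depth behind each value is unknown. Each peak carries the authors' signal value, whose unit is not stated. It was compared between genes within a library, and between libraries only after subtracting the median difference over all promoters. Of the markers used to check the label, all 5 of the general neuronal genes had a promoter peak in both libraries and none of the 6 genes of other organs had one in either library. Among markers of other brain cells, promoter peaks were found in replicates 1 and 2 for 4 and 3 of 4 astrocyte genes, 3 and 3 of 5 oligodendrocyte-lineage genes, 5 and 3 of 5 vascular genes, and 1 and 1 of 4 microglial genes, with P2ry12, Csf1r and Aif1 at 0. Promoters of several cell types were thus open, and a weaker peak in few cells cannot be told apart from a weaker peak in all of them.

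The promoters of the 3 neuron-specific genes are shown first, because the comparison with their general counterparts turns on them. Each line gives reference sequence of GRCm38.p6 (the coordinates of mm10), 5′ to 3′ on the strand of the gene, and capitals mark bases that lay under a footprint in both libraries. For Actl6b (chr5:137553367-137553516, plus strand) and Chd5 (chr4:152338501-152338650, plus strand) they are the 150 bases before the gene start. For Ss18l1 they are the 76 bases (chr2:180042433-180042508, plus strand) that separate its start from that of Psma7, a proteasome subunit gene on the opposite strand.
Actl6b promoter: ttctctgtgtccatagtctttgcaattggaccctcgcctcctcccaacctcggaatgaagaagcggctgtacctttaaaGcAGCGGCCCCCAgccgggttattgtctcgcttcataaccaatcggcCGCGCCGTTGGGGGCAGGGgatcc
Chd5 promoter: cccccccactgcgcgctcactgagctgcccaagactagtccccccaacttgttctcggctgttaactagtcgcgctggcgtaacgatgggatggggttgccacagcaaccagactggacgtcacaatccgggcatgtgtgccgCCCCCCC
Ss18l1 and Psma7 starts: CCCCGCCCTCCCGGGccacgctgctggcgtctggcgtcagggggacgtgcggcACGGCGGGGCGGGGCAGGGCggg
Footprints of both libraries covered 31 of the 150 bases at Actl6b, 7 of the 150 at Chd5 and 35 of the 76 between Ss18l1 and Psma7. The GC-rich word GGGGCGGGG, the core bound by SP and KLF factors, occurred in the last of these and lay under a footprint in both libraries.

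All 3 neuron-specific genes and all 4 general counterparts had an open promoter, defined as a peak within 500 bp of any annotated transcript start, in both libraries. Among all protein-coding genes 66.1% had one in replicate 1, 63.3% in replicate 2 and 62.8% in both. The signal of the strongest promoter peak did not order the pairs in 1 direction. Actl6b, an actin-related subunit of the neuronal complex, had a single promoter peak, whose signal was 3.69 (replicate 1) and 4.16 (replicate 2). Actl6a, the form of dividing cells, had 6.70 and 6.80. The log2 ratio of Actl6b over Actl6a was -0.86 and -0.71, so the neuronal gene was the lower one in both libraries. The peak of Actl6a stood at an internal annotated start, 2222 bp downstream of the outermost one.

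Ss18l1, a calcium-responsive co-activator and BAF subunit, had the higher signal of its pair, with 4.23 and 4.41 against 2.05 and 3.14 at Ss18, the ubiquitous subunit. The log2 ratio of Ss18l1 over Ss18 was 1.04 in replicate 1 and 0.49 in replicate 2, which share the sign and differ in size. The strongest peak at Ss18l1 is centred 78 bp before its start and spans the stretch between Ss18l1 and Psma7, and the share of each gene in it was not tested. Its neighbours inside Ss18l1 had signals of 2.16 and 2.33 in replicate 1, and of 2.88 and 2.62 in replicate 2.

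Chd5 had the lowest promoter signal of the 7, at 1.58 and 1.91. Chd4 had 5.85 and 6.95, and Chd3 had 4.53 and 4.92. The log2 ratio of Chd5 over Chd4 was -1.89 and -1.87 and that over Chd3 was -1.52 and -1.37, the widest gaps of the 4 pairs. The peak that gave Chd3 its value lies 4266 bp inside the gene at another annotated start. It had few CpG dinucleotides, with an observed-to-expected ratio of 0.197 in the 200 bp around the peak centre, against 0.901 to 1.06 at the other 6 genes. At the outermost Chd3 start replicate 1 had a peak of 0.651 and replicate 2 had none. When the signals of all promoter peaks of a gene were summed, the ratio of Chd5 over Chd3 shrank to -0.37 and -0.68 and that of Actl6b over Actl6a grew to -1.27 in both.

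Distal peaks, with a centre over 1000 bp from every annotated start of any gene, were counted per 100 kb of gene body with 20 kb flanks. Chd5 had 6 distal peaks in each library (6.55 per 100 kb in both), Actl6b had 2 in each (3.57), and Ss18l1 had 2 and 1 (2.95 and 1.48). Of the counterparts, Actl6a had 1 in each (1.65), Ss18 had 3 and 2 (3.04 and 2.03), Chd3 had 4 and 6 (6.05 and 9.07), and Chd4 had 12 and 7 (16.1 and 9.38). Actl6b thus lay above Actl6a and Chd5 below Chd4 in both libraries, while Chd5 and Chd3 changed places between them. The median of the 3 neuron-specific genes minus that of the 4 counterparts was -0.98 and -1.98 peaks per 100 kb. Without flanks it was -0.39 in replicate 1 and 4.12 in replicate 2, and with the strongest 50% of peaks it was 0.48 and -1.31. The sign thus depended on the region and the peaks counted.

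Promoter footprints, counted within 500 bp of any annotated start, numbered 6 and 7 at Actl6b against 11 and 11 at Actl6a. There were 13 and 9 at Ss18l1 against 14 and 11 at Ss18, and 10 and 5 at Chd5 against 8 and 6 at Chd3 and 16 and 9 at Chd4. Actl6b and Ss18l1 each had fewer than their counterpart in both libraries. Actl6a has 8 annotated starts and Actl6b has 6, whereas Ss18 has 9 and Ss18l1 has 1, so the general genes had more windows in which to count. With the outermost gene start alone, the median of the neuron-specific genes minus that of the counterparts was 0 in replicate 1 and 3.5 in replicate 2, against -2.5 and -3 with all starts. At that start the counterparts Actl6a and Chd3 lacked a peak in a library or both. The cause of the change was not tested.

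**Figure D1:**
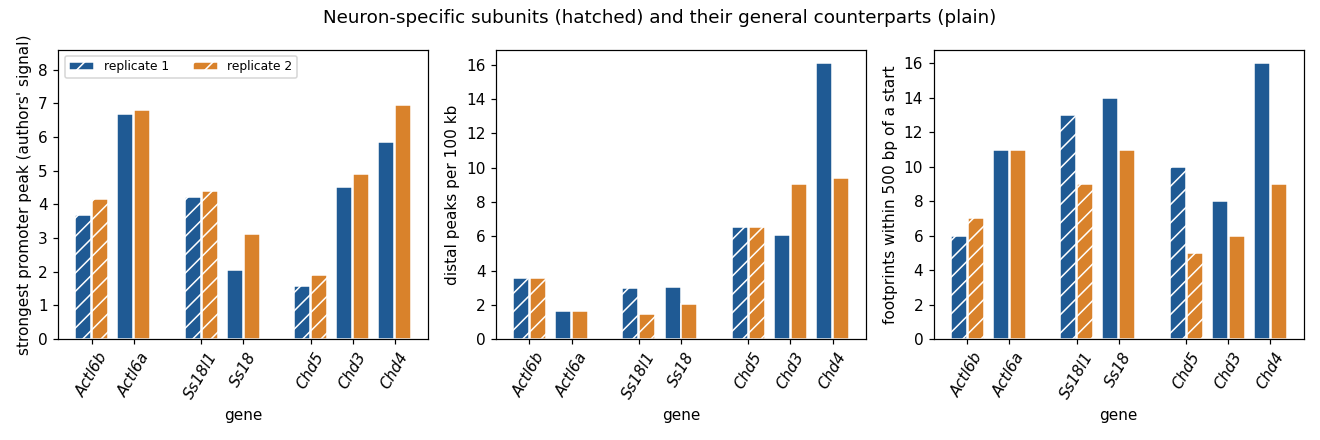
Promoter signal (authors' signal, left), distal peaks per 100 kb (middle) and footprints within 500 bp of a start (right) of the 3 neuron-specific genes (hatched bars) and their 4 general counterparts (plain bars), with replicate 1 in blue and replicate 2 in orange. Ss18l1 stands above Ss18 in promoter signal, with 4.23 and 4.41 against 2.05 and 3.14, whereas Actl6b stands below Actl6a and Chd5 below Chd3 and Chd4 in both libraries.

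Over all 45 genes, a promoter peak was found at 45 in replicate 1, at 44 in replicate 2 and at 44 in both. The exception was Kdm6b, a demethylase that removes the Polycomb mark, whose promoter peak had a signal of 1.04 in replicate 1 and was missing from replicate 2. These genes have a median of 7 annotated starts against 3 over all protein-coding genes, which gives them more windows. With only the outermost start of each gene, 41 of 45 had a peak in replicate 1, 40 in replicate 2 and 39 in both, against 60.9%, 58.0% and 57.4% of all genes. The 6 that lacked one in a library were Actl6a, Chd3, Hdac4, Hdac7, Hdac9 and Kdm6b. The median promoter signal was 4.69 in replicate 1 and 5.21 in replicate 2, with Kdm6b counted as 0 in the latter, and the median over all open promoters was 3.13 and 3.73. Of the 45, 29 lay above that median in each library, and the median percentile among open promoters was 67.9 and 68.0.

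CHD remodellers spanned most of this range. Chd2, a transcription-coupled remodeller, had 13.0 and 14.8, and Chd8, a regulator of Wnt targets and of brain growth, had 7.26 and 9.42. Chd4 and Chd3, the general NuRD ATPases, followed. Chd1 (2.52 and 2.58), which binds methylated histone H3, Chd7 (1.90 and 2.22), which acts at enhancers, and Chd5 lay below the median of all open promoters in both libraries. The peaks of Chd2 and Chd8 were centred 3930 and 13220 bp inside the outermost gene boundary in replicate 1, next to other annotated starts.

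Within the BAF complex the 2 alternative ATPases were both strongly open, Smarca4 (BRG1) at 10.8 and 13.6 and Smarca2 (BRM) at 7.33 and 9.01. The scaffold Smarcc1 had 9.81 and 9.90, while its paralogue Smarcc2, which can take its place in the complex, had 2.91 and 2.31, a log2 ratio of Smarcc2 over Smarcc1 of -1.75 and -2.10. A similar gap separated the DNA-binding subunits that define alternative complexes: Arid1a had 8.47 and 10.7, Arid1b had 2.04 and 2.50, and Arid2, of the PBAF form, had 1.39 and 1.60, the lowest of the group. The log2 ratio of Arid1b over Arid1a was -2.06 and -2.10. Of the core subunits, Smarcb1 had 5.37 and 7.01 and Smarce1 had 2.02 and 2.56. Each of these paralogue pairs kept its order in both libraries.

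The methyltransferases ranged from Kmt2a (7.77 and 11.0), an H3 methyltransferase of the trithorax family, to Kmt2d (0.865 and 0.789), its enhancer-acting relative. Setd5 had the next highest signal (7.05 and 9.59), and it shares its start region with an antisense gene, Gt(ROSA)26Sor, 32 bp away on the opposite strand. Setd1a and Setd1b, catalytic subunits of paired COMPASS complexes, had 6.26 and 7.07 against 1.15 and 1.78. Setd2, which methylates H3 along transcribed genes, had 5.32 and 6.23, Kmt2e had 4.96 and 5.21, Nsd1 had 2.20 and 2.39, and Kmt2c had 1.95 and 2.02. The 9 genes thus fell into 5 above and 4 below the median of all open promoters, the same way in both libraries.

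All 4 PRC2 genes were open. Ezh2, the catalytic subunit that predominates in dividing cells, had 6.80 and 7.67, and Ezh1, the form that persists in non-dividing cells, had 2.54 and 4.06, a log2 ratio of Ezh1 over Ezh2 of -1.42 and -0.92. The non-catalytic core subunits Suz12 (5.69 and 6.24) and Eed (4.90 and 5.59) lay between them. Kdm1a, the LSD1 demethylase of the CoREST complex, had 5.29 and 6.23 against the 1.04 and no peak of Kdm6b.

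Hdac4, a class IIa deacetylase whose location in neurons follows calcium signals, had the strongest promoter peak among the 45 in replicate 2 (15.0) and the second in replicate 1 (12.2). That peak lay at an internal start, 15258 bp from the outermost one. The other class IIa genes were spread out, with Hdac5 at 6.41 and 7.23, Hdac7 at 1.01 and 1.40 and Hdac9 at 0.953 and 1.31. Among the class I enzymes Hdac1 had 7.17 and 8.12, Hdac3 had 4.69 and 5.56, and Hdac2 had 3.35 and 3.95. Hdac2, the class I form best known from mature neurons, was thus lower than Hdac1 by a log2 ratio of -1.10 and -1.04. Hdac11, the class IV enzyme, had 3.80 and 3.39. The acetyltransferases Ep300 (6.45 and 6.37) and Crebbp (4.40 and 4.96), paralogous co-activators, both lay above the median of open promoters.

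**Figure D2:**
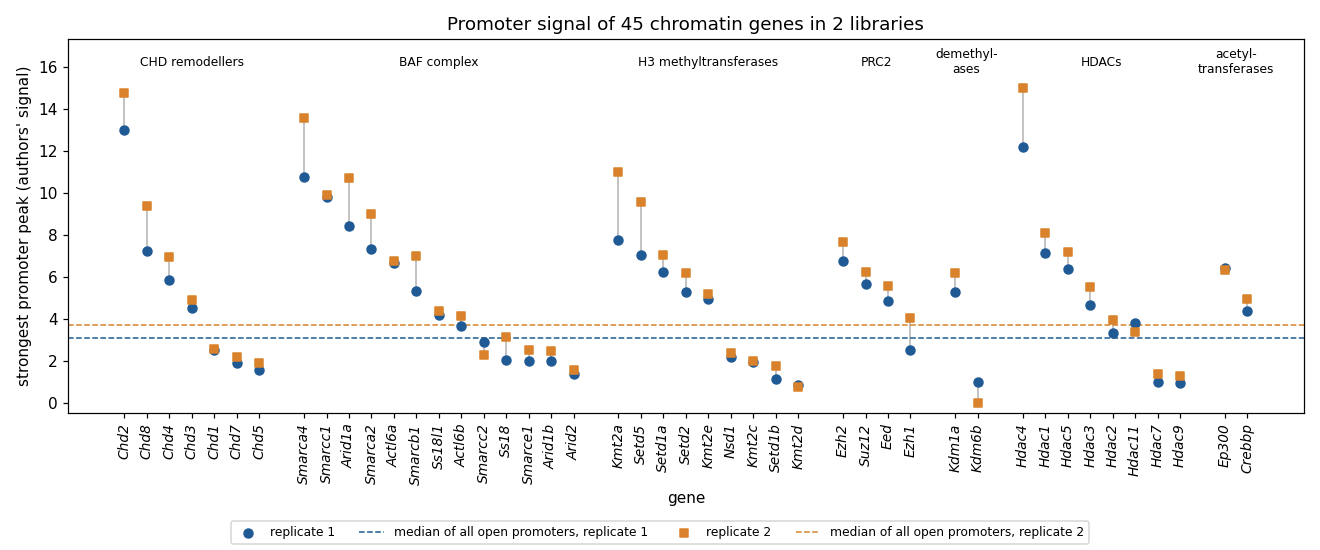
Signal of the strongest promoter peak (authors' signal, vertical axis) of each of the 45 genes, grouped by function and ordered by signal, with circles for replicate 1 and squares for replicate 2 joined by a line, and dashed lines at the median of all open promoters (3.13 and 3.73). Chd2, Smarca4 and Hdac4 stand above 10 in both libraries, and Kdm6b is drawn at 0 in replicate 2, where it had no peak.

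The libraries ranked the promoters alike, with Spearman's rho of 0.988 across the 45 genes, Kdm6b counted as 0 in replicate 2. Pearson's r of the log2 signals was 0.981 over the 44 genes open in both, which leaves out Kdm6b. The genes are a chosen list and share each library's scaling. The signal was higher in replicate 2 at 40 of the 45, and the exceptions were Ep300, Hdac11, Kdm6b, Kmt2d and Smarcc2. Over all 13776 genes open in both libraries the median log2 ratio of replicate 1 over replicate 2 was -0.17. After subtracting that value, the ratios of the 44 genes open in both had an SD of 0.203, against 0.228 over all genes. The 3 largest differences were -0.51 at Ezh1, 0.50 at Smarcc2 and -0.46 at Setd1b, and Ss18 followed with -0.44. At Smarcc2 the strongest peaks of the 2 libraries were centred 18 and 268 bp before the start. For 40 of the 44 genes the strongest promoter peaks of the libraries overlapped, and for Arid1b, Kmt2c, Nsd1 and Ss18 they were different peaks. The same share over all 13776 genes was not computed.

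Several genes share their start region with another gene on the opposite strand, so that a promoter peak could belong to either. Within 1000 bp the neighbour was protein-coding for Ss18l1 (Psma7, 76 bp), Smarcc1 (Dhx30, 76 bp) and Hdac3 (Rell2, 63 bp). At Smarcc1 the strongest peak lay 14252 bp away from that shared start. It was not annotated as protein-coding for Setd5, Smarca2 (Gm20616, 36 bp), Eed (E230029C05Rik, 164 bp), Kmt2e (5031425E22Rik, 172 bp), Kmt2c (4831440E17Rik, 284 bp), Ep300 (1110025M09Rik, 323 bp), Chd2 (Gm44686, 392 bp), Kmt2a (AC061963.1, 432 bp), Chd8 (Gm26590, 434 bp), Hdac4 (Gm37048, 486 bp), Setd1b (AI480526, 527 bp) and Ezh2 (Gm26625, 783 bp).

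Distal peaks were found at 43 of the 45 loci in each library, where 73.3% of all genes had one in replicate 1 and 67.4% in replicate 2. Longer genes offer more room, and the median length was 52184 bp here against 17425 bp over all genes, so density was used for the comparison. Its median was 3.57 peaks per 100 kb in replicate 1 and 2.47 in replicate 2, against 2.36 and 1.95 over all genes. Of the 45 genes, 32 and 27 lay above the median of all genes. Ezh2 and Hdac3 had no distal peak in either library, and Setd2 had 1 in each (0.793 per 100 kb).

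The highest mean density belonged to Kdm6b, which had no promoter peak in replicate 2, with 16 peaks in replicate 1 and 10 in replicate 2 (29.0 and 18.1 per 100 kb). Its strongest distal peak lay in its own intron, 2394 bp after the start (chr11:69411181-69411380), with a signal of 5.63 and 6.48. A pair of further peaks 3986 and 4466 bp upstream in replicate 1 had signals of 4.22 and 5.16. Hdac7, a class IIa deacetylase, followed with 12 and 13 peaks (13.1 and 14.2 per 100 kb), Chd4 with 16.1 and 9.38, Kmt2d with 18.9 and 2.51, and Arid1a with 11.0 and 8.49.

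The agreement between libraries differed among these dense loci. Kmt2d had 15 distal peaks in replicate 1 and 2 in replicate 2: 13 of the 15 had no counterpart, and 9 of those 13 were exonic. Smarcc2 had 10 and 1, with 9 unmatched and 8 of them exonic. Hdac5 had 10 and 3, with 7 unmatched and 4 of them exonic, and Setd1a had 8 and 2, with 6 unmatched and none exonic. Hdac7, by contrast, had 2 unmatched peaks in replicate 1 and 3 in replicate 2. Without replicate 1 the densities of Kmt2d, Smarcc2 and Setd1a were thus 2.51, 1.40 and 3.15 per 100 kb.

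Taking all member loci, 257 distal peaks were listed in replicate 1 and 183 in replicate 2. Of these 58.4% and 82.5% overlapped a peak of the other library by 1 bp or more, against 59.3% and 79.4% of all distal peaks. Peaks found in replicate 1 alone numbered 107, with a median signal of 0.438 against 0.984 for the 150 shared ones. They were exonic in 32.7% of cases and the shared ones in 16.0%, whereas over all distal peaks the shares were 9.24% and 6.97%. The peaks of these loci lie in gene bodies with 20 kb flanks, while all distal peaks include those far from genes. The exonic shares of the 2 sets are therefore not directly comparable. Introns held 54.9% and 58.5% of the distal peaks at these loci, and intergenic flanks held 22.2% and 25.1%.

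**Figure D3:**
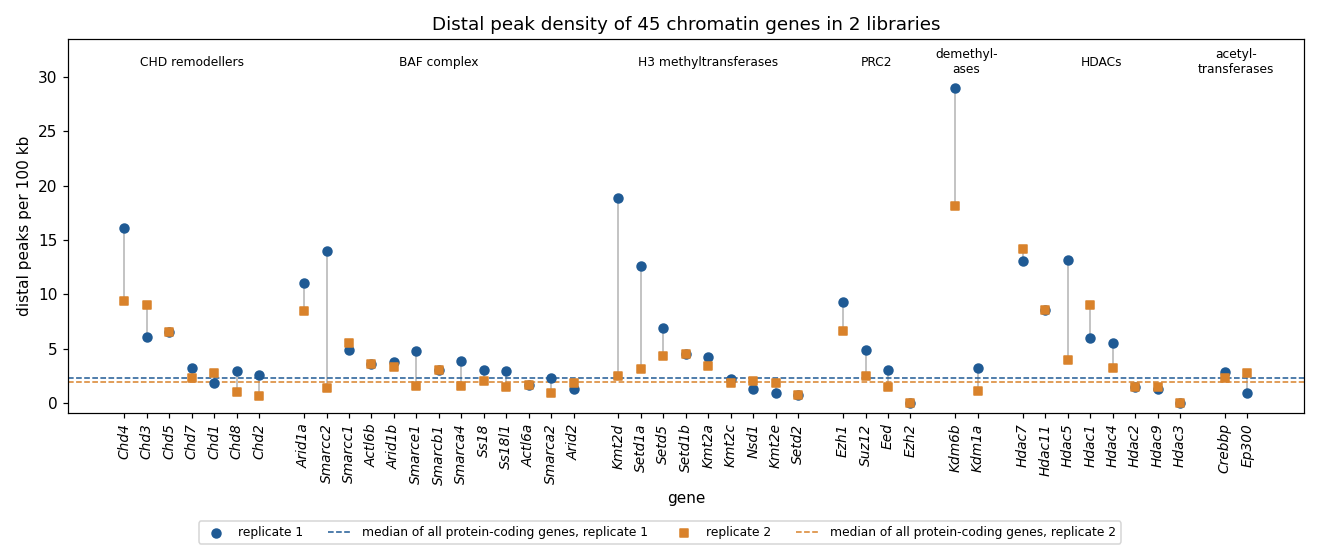
Distal peaks per 100 kb of gene body with 20 kb flanks (vertical axis) for each of the 45 genes, grouped by function and ordered by density, with circles for replicate 1 and squares for replicate 2 joined by a line, and dashed lines at the median of all protein-coding genes (2.36 and 1.95). Kdm6b is highest in both libraries, Kmt2d and Smarcc2 lie at 18.9 and 14.0 in replicate 1 and at 2.51 and 1.40 in replicate 2, and Ezh2 and Hdac3 lie at 0.

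At 11 of the 45 genes the strongest distal peak exceeded the promoter signal, and they were the same 11 in both libraries: Arid1b, Arid2, Chd3, Chd5, Chd7, Hdac7, Hdac9, Kdm6b, Kmt2d, Nsd1 and Setd1b. The share over all protein-coding genes was not computed, so 11 of 45 cannot be called many or few. These genes are also longer, with a median of 52184 bp against 17425 bp over all genes. At Chd3 it was an intronic peak 2836 bp after the outermost start (chr11:69366481-69366660), with 5.40 and 6.48 against a promoter signal of 4.53 and 4.92. At Arid2 it lay 1918 bp upstream (3.55 and 3.90), and at Setd1b in an exon 7648 bp after the start (3.27 and 4.40). At Nsd1 it lay 19402 bp upstream in replicate 1 (4.58 and 5.49), at Chd7 109264 bp into an intron (2.51 and 2.99), and at Hdac9 252144 bp into an intron (1.78 and 2.64). At Chd5 the difference was small in replicate 1, with 1.62 against 1.58, and the peak lay in an exon of the neighbouring gene Rpl22. A distal peak in the flank of a gene is near it and is not shown to act on it.

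**Figure D4:**
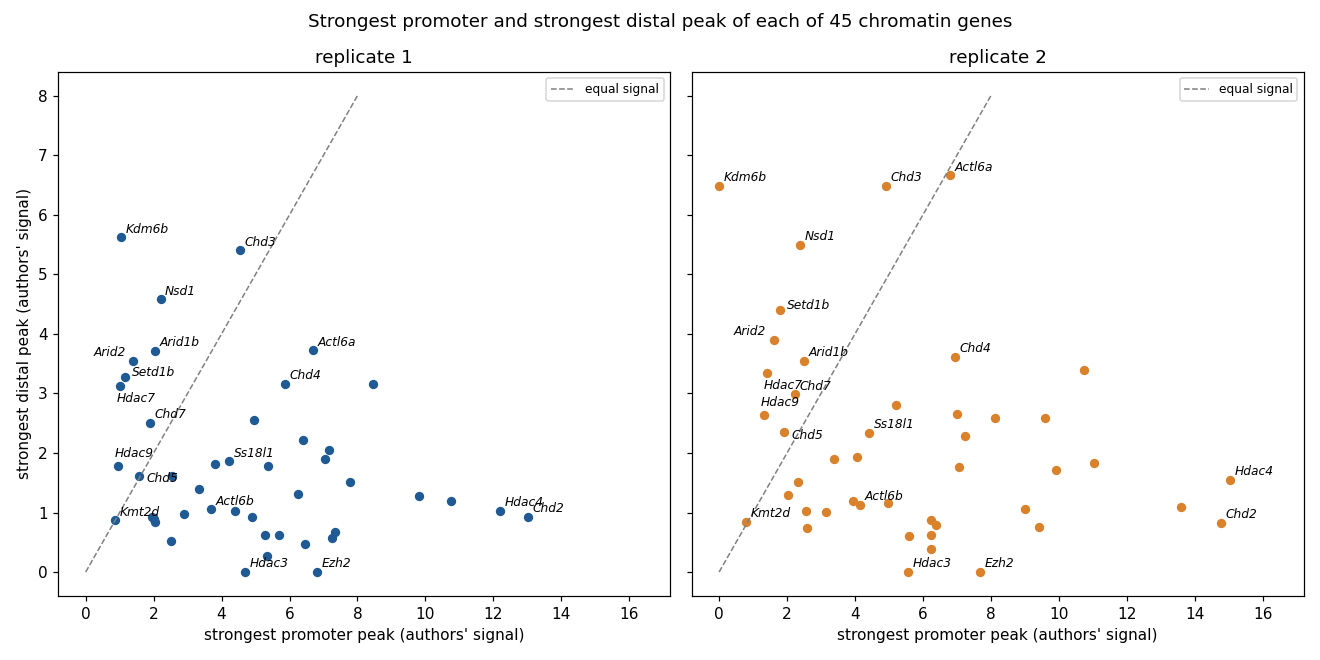
Signal of the strongest distal peak (vertical axis) against that of the strongest promoter peak (horizontal axis), both the authors' signal, with 1 point for each of the 45 genes in replicate 1 (left) and replicate 2 (right) and a dashed line where they are equal. The same 11 genes lie above the line in both panels, among them Kdm6b, Chd3 and Nsd1, while Hdac4 and Chd2 have the strongest promoters with distal peaks no higher than 1.55.

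The single strongest distal peak at these loci in replicate 2 stood 7888 bp upstream of Actl6a (chr3:32698321-32698500), where the signal was 3.72 (replicate 1) and 6.66 (replicate 2). In replicate 1 the intronic peak of Kdm6b was the strongest. At the neuron-specific genes the strongest were the Rpl22 exon peak near Chd5 in replicate 2 (2.35) and an intronic peak of Ss18l1 in replicate 1 (chr2:180051041-180051240), with 1.86 and 2.33. Actl6b had its only shared distal peak downstream, in an intron of Tfr2, with 1.05 and 1.13. The strongest distal peaks of Actl6a, Chd3 and Chd4 thus exceeded those of all 3 neuron-specific genes in both libraries, while that of Ss18 (0.849 and 1.00) was below them.

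Some of these peaks held words known as binding sites of DNA-binding proteins. In all 17 words were searched, and those named below were chosen after their matches were seen. The word AGGGGGCGC, part of the site bound by CTCF, a protein that organises chromatin loops, was searched on both strands in the 200 bp around each distal peak centre of replicate 1. It occurred in 8 of the 257 windows at these loci (3.11%) and in 1.52% of all 69595 distal windows. The latter include windows far from genes, and the median GC content was 55% at these loci and 52% over all. The shares of this and the other distal words are therefore not directly comparable. The 8 windows belonged to 8 different genes: Actl6a, Actl6b, Arid1a, Chd5, Hdac7, Kmt2a, Setd1b and Ss18l1. At least 0.5 of the match lay under a footprint at all 8 in replicate 1 and at 7 in replicate 2, with Chd5 the exception. The same share over all matches in distal windows was not computed, so these counts cannot be called many or few. This holds for the other distal words too. The windows around the matches at the neuron-specific genes and at Actl6a are printed on the plus strand, with the match in capitals, from chr3:32698369-32698437, chr5:137585180-137585248, chr2:180051108-180051176 and chr4:152385845-152385913 in that order.
Actl6a upstream: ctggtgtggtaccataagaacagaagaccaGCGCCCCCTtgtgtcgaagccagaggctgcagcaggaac
Actl6b downstream: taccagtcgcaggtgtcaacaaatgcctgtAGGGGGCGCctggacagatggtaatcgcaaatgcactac
Ss18l1 intron: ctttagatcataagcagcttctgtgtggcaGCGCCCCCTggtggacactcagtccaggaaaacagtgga
Chd5 intron: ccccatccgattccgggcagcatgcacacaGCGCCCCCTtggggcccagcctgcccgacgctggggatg
Each of the 3 neuron-specific genes had 1 match among its distal peaks, of which there were 10 in all in replicate 1. Of the 4 counterparts, with 20 such peaks in all, only Actl6a had one. The match near Actl6b lay in the peak in an intron of Tfr2. The share of all genes with such a match was not computed, so the matches are not shown to be particular to the neuron-specific genes. At Actl6a the footprint over the match spanned chr3:32698387-32698432 in replicate 1 and chr3:32698387-32698433 in replicate 2, nearly the same bases. A match describes letters in a window, and CTCF binding was not measured here.

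A second intronic peak of Chd5, centred 11380 bp after the start in replicate 1, had signals of 1.52 and 1.83. It held the only match among the 257 windows to GCGTGGGCG, the site of the activity-induced EGR factors, which 0.187% of all distal windows held. The match lay under a footprint in both libraries and is shown from chr4:152349968-152350036 on the plus strand, with the match in capitals.
Chd5 intron EGR: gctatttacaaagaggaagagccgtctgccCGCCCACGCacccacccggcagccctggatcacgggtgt
The word TTCAGCACC, the left part of the site of REST, a repressor of neuronal genes outside neurons, occurred in 4 of the 257 windows (1.56%) and in 0.362% of all. Its matches lay at Chd7, Kmt2d and Smarcc2, with none at the 3 neuron-specific genes. Only 1 of them, at Kmt2d, lay under a footprint, in replicate 1 alone. At Kmt2d 13 of the 15 distal peaks of replicate 1, and at Smarcc2 9 of the 10, had no counterpart in replicate 2. The word GGACAGCGC, from the right part of the REST site, occurred in 0 of the 257 windows and in 0.168% of all.

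Promoter footprints were found at 45 of the 45 genes in replicate 1, 42 in replicate 2 and 42 in both, against 65.0%, 61.2% and 60.8% of all protein-coding genes. The 3 genes without one in replicate 2 were Arid2, Kmt2d and Kdm6b, which had 5, 5 and 6 in replicate 1 and are among the weakest promoters. The median number per gene was 12 and 9, against 5 and 4 over all genes. These counts cover all annotated starts, of which these genes have a median of 7 against 3 over all genes. With the outermost start alone their median was 9 and 7, and no such value over all genes is given. Counts were higher in replicate 1, the library with more footprints, at 37 of the 45 genes, and Actl6b, Chd2, Hdac11 and Setd1b had more in replicate 2.

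The most footprints were found at Nsd1 (32 in each library), Smarca2 (27 and 25) and Hdac5 (35 and 9), and the fewest by the mean of both at Setd1b (1 and 3). Smarca2 has 42 annotated starts and Hdac5 has 18. Across the 45 genes, the number of starts and the number of footprints had a Pearson's r of 0.428 in replicate 1 and 0.457 in replicate 2. Spearman's rho was lower, at 0.258 and 0.288. At Nsd1, with 9 starts and a promoter signal below the median, the count was the same in both libraries, whereas at Hdac5 most footprints of replicate 1 had no equivalent count in replicate 2. Over these promoters 46.2% of 612 footprints in replicate 1 and 68.0% of 416 in replicate 2 overlapped one of the other library, against 46.9% and 67.3% over all promoters.

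The table of local cut rates gave a further measure from the same cuts that does not use the peaks called. Of the bases within 500 bp of the outermost gene start, a median of 96.5% in replicate 1 and 91.2% in replicate 2 were listed with a false discovery rate under 0.05, against 51.5% and 41.2% over all genes. The values were 0% in both libraries at Actl6a, Hdac7 and Hdac9, whose strongest peaks lay at internal starts. At Kdm6b they were 59.8% and 2.30%. Actl6b had 52.0% and 53.1%, Chd5 had 68.2% and 48.9%, and Ss18l1 had 100% in both, as did Ss18.

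**Figure D5:**
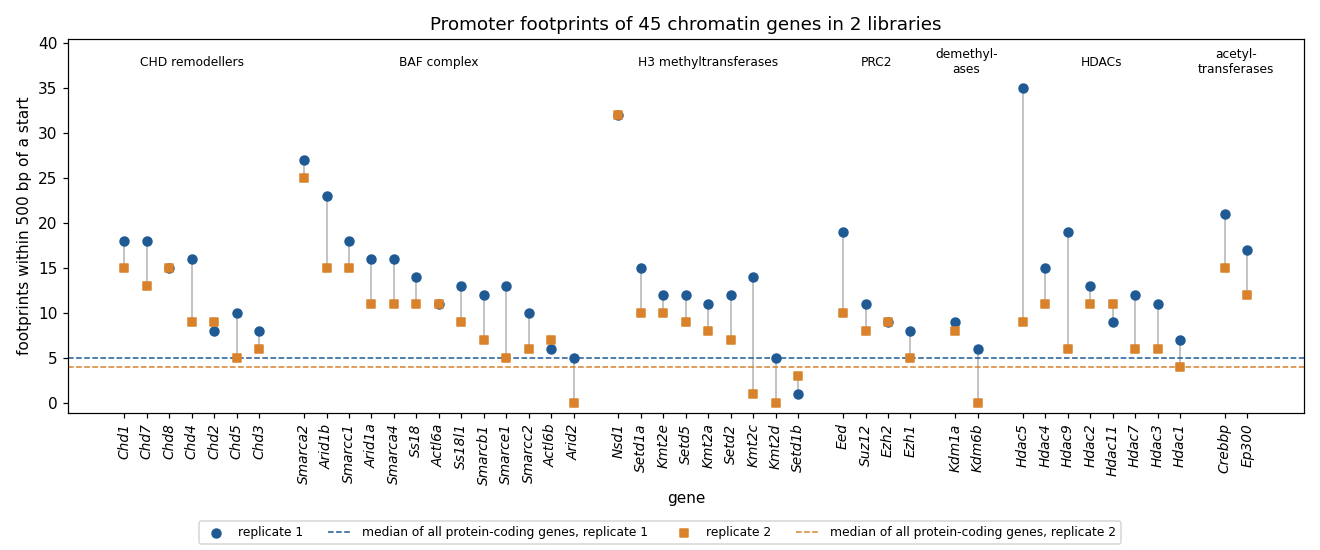
Footprints within 500 bp of any annotated start (vertical axis, number) for each of the 45 genes, grouped by function and ordered by number, with circles for replicate 1 and squares for replicate 2 joined by a line, and dashed lines at the median of all protein-coding genes (5 and 4). Nsd1 has 32 in both libraries, Hdac5 has 35 in replicate 1 and 9 in replicate 2, and Arid2, Kmt2d and Kdm6b are at 0 in replicate 2.

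Footprinted words were also read at the promoters. In the 200 bp around the strongest promoter peak of replicate 1, the word GCGCATGCG, the site of NRF1, a factor of nuclear genes for mitochondria and of many CpG-rich promoters, occurred at 3 of 45 genes: Eed, Smarcb1 and Smarcc1. It occurred in 3.42% of 14496 such windows over all genes. Every match at the 3 genes lay under a footprint in both libraries, and they are printed because the footprints of the 2 libraries began and ended within a few bases of each other. The share of all matches under a footprint was not computed, here or for the promoter words below. The sequences, on the strand of the gene with the match in capitals, are from chr7:89981207-89981275 (minus strand), chr10:75921583-75921611 (minus strand) and chr9:110131877-110131945 (plus strand).
Eed start: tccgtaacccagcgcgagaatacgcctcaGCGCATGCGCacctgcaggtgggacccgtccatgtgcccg
Smarcb1 start: agcttctccaCGCATGCGCaccgagggcg
Smarcc1 internal start: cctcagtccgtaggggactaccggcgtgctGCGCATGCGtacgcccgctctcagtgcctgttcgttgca
The footprint at Smarcb1 covered chr10:75921588-75921608 in both libraries, and that at Smarcc1 covered chr9:110131900-110131924 in replicate 1 and ended at 110131926 in replicate 2.

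The CTCF word occurred in this window at Kdm1a and Smarcc2, 2 of 45 genes, against 2.37% of all such windows, and both matches lay under a footprint in both libraries. The genes are shown in that order, on their own strands, from chr4:136602812-136602880 (minus strand) and chr10:128459159-128459227 (plus strand).
Kdm1a start: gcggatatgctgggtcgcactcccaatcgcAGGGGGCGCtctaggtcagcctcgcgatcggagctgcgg
Smarcc2 start: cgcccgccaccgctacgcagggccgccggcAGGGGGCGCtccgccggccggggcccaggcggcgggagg

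Hdac5 and Chd2 held further words under footprints in both libraries. The start of Hdac5, whose protein represses MEF2 factors, held the MEF2 word CTAAAAATA and the E-box CACGTG. The MEF2 word was at 1 of 45 genes, against 0.117% of all such windows. The E-box was also at 1 of 45, against 8.02%. Both lay under footprints in both libraries. The word TGACGTCA, bound by CREB-family factors, occurred at 2 of 45 genes, against 3.49% of all windows. It lay under a footprint in both libraries at Chd2 and in neither at Chd7. With matches at 1 or 2 genes and no test, these words are not shown to be particular to the 45 genes. Sequences are on the minus strand, that of Hdac5 and Chd2, from chr11:102230163-102230231 and chr7:73537861-73537928, with the words in capitals.
Hdac5 start: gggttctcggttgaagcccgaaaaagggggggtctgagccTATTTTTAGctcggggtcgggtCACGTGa
Chd2 internal start: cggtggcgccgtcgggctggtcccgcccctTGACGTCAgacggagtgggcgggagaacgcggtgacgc

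More common promoter words were also counted. GGGGCGGGG was present around the strongest peak of 7 of 45 genes, among them Actl6b, Chd4, Crebbp and Ss18l1, and in 18.1% of all windows. CCAAT, the NFY word, was present at 17 of 45 and in 31.0% of all. The ETS word CCGGAAGT and the YY1 word AAGATGGCG were at 0 of 45 in this window, against 6.86% and 2.58% of all. From 250 bp before to 50 bp after the outermost start, the YY1 word was present at Crebbp, Ep300 and Kmt2e, 3 of 45 against 1.70% of all genes, and lay under a footprint in both libraries at Ep300 and Kmt2e. The median GC content around the strongest peak was 69% at these genes and 66% over all open promoters.

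The partners with which these proteins form complexes were described from 6 lists with 59 genes in all, and each had an open promoter in both libraries, against 62.8% of all protein-coding genes. These lists, too, have more annotated starts per gene than the 3 over all genes, with medians of 5 to 8. Among further BAF subunits, Dpf2 had 8.81 and 10.3, and Phf10 had the lowest signal of the list, at 0.797 and 0.699. Their neuronal replacements lay between them, Dpf1 at 5.38 and 6.69 and Dpf3 at 5.71 and 6.63. The log2 ratio of Dpf1 over Dpf2 was -0.71 and -0.62, and that over Phf10 was 2.76 and 3.26. The neuronal member of this family was therefore lower than one general counterpart and higher than the other, in both libraries, as Actl6b and Ss18l1 lay on opposite sides of theirs.

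In the NuRD list, signals ran from 12.6 and 15.1 at Gatad2a, a structural subunit, to 0.958 and 1.32 at Mta1, a scaffold subunit. Jarid2, which recruits PRC2, had 9.48 and 10.7, and Epop, an elongin-binding cofactor, had 4.36 and 4.30, the lowest of the PRC2 partners by the mean. By the mean of both libraries, the COMPASS list ran from Cxxc1 (7.99 and 7.83), which binds unmethylated CpG, to the co-activator Ncoa6 (1.19 and 1.41). Among HDAC partners, Rcor1 (10.1 and 10.4), the CoREST scaffold, was highest and Hdac8 (0.818 and 1.11), a class I enzyme, lowest. Of the remaining remodellers, Ep400 (10.5 and 11.9) was highest and Smarca1 (0.531 and 0.575), an ISWI ATPase, lowest.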

How the data were processed

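DNase-seq of 2 libraries of 1 group was analysed. Per the labels and the text files deposited with them, peaks, footprints and cut rates were called for each library on its own, from filtered alignments in mm10 coordinates. Aligner, callers, versions and thresholds were not given in the sources used here. Peak signal was used as the authors deposited it, from the longer of the 2 peak lists of each library. The value deposited with every footprint is 0.01, a p-value type of limit, so footprints were counted and not ranked, and the deposited cut-rate table lists false discovery rates (also a p-value type) under 0.05. Positions were compared with GENCODE M21 starts and gene bodies, and no peak ended beyond a GRCm38.p6 chromosome. Promoter peaks and footprints lay within 500 bp of any annotated start. Distal peaks had centres over 1000 bp from all starts and lay in the gene body with 20 kb flanks. Words were searched exactly, on both strands, and were shortened from longer consensus sites.

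No test was made. The libraries are named biological replicates, but the labels do not say that they came from separate animals. Values were set beside all 21938 protein-coding genes. The genes and lists were chosen with earlier results of these data known. Values are given for the neuron-specific genes and counterparts, the 2 highest and the lowest promoter signals of each group, the extremes of density, footprints and replicate difference, genes lacking a peak, and the highest and lowest of each partner list; other members were added to account for all 45. The 200-bp windows around peak centres were added after the data were seen. Alternatives covered windows, peak lists, flanks, merged or shared peaks and each library alone. Python 3.11.15 with numpy 2.4.6, pandas 2.3.3 and matplotlib 3.10.9 was used. On simulated intervals (300 genes, 2000 peaks) the counts differed from a direct search in 0 cases.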

Additional observations from a re-analysis of the deposited data

How the results depend on the processing

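Results were recomputed under the alternatives one at a time, and each value here is the mean of the 2 libraries. The number of genes with an open promoter in both libraries stayed between 39 and 44, and the number with a promoter footprint in both between 37 and 44. The signs of the 4 promoter ratios held wherever both genes had a peak in both libraries. Actl6b over Actl6a had no value with the gene start alone, and Chd5 over Chd3 had none there or with a 100 bp window. Actl6a or Chd3 then lacked a peak in a library or both, while Actl6b and Chd5 kept theirs. Where the peak was missing, the neuron-specific gene was thus the higher one, the reverse of the order in the report. The median promoter signal was 4.95, and 4.32 with a 100 bp window, 5.76 with 2000 bp, 3.98 at the gene start alone and 7.84 with signals summed. Summing changed Actl6b over Actl6a from -0.78 to -1.27, Chd5 over Chd4 from -1.88 to -1.32 and Chd5 over Chd3 from -1.44 to -0.53, and a 2000 bp window gave -1.77 for the last, because it reached the intronic peak of Chd3.

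The median distal density was 3.02 peaks per 100 kb, and 1.59 with the shorter peak list, 1.55 with the strongest 50% of peaks, 1.87 with shared peaks and 4.25 with 100 kb flanks. The density of the neuron-specific genes minus that of their counterparts was -1.48, and -0.42 with the strongest 50% of peaks, -0.51 with 100 kb flanks (-1.03 in replicate 1 and 0.01 in replicate 2) and 1.86 without flanks, where it changed sign in replicate 2. With the strongest 50% of peaks replicate 1 alone changed sign (0.48). The median number of promoter footprints was 10.5, and 4.5 with a 100 bp window, 14.5 with 2000 bp, 8 at the gene start alone or inside peaks, and 6 when shared. The footprint difference between the neuron-specific genes and their counterparts was -2.75, and -1.75 (100 bp), -5.75 (2000 bp), -1.5 (inside peaks), -2.25 (shared) and 1.75 at the gene start alone, where it changed sign; the cause was not tested. The number of genes holding a word, summed over the words, was 44 from 250 bp before to 50 bp after the gene start, 75 within 500 bp on each side and 37 in the 200 bp around the strongest promoter peak. With either library alone and the settings of the report, no sign changed. Unknown read depth limits the weak peaks and footprints, of which replicate 1 has more. No paired analysis was possible because there is 1 group.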
